A study of Mus musculus with 6 samples.

Results

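The genes that copy DNA and let a cell enter S phase were followed in cortical cells of mouse embryos whose mothers had been given phenobarbital, a barbiturate that strengthens currents through GABA-A receptors. The set holds 53 genes, of 20145 gene symbols on the array, and was chosen by name: every non-control probe whose RefSeq accession belongs to one of these genes was taken, 61 probes in all. 45 genes had 1 probe and 8 had 2. All 53 were found, and 52 had a probe that passed the filter on dim signals. The exception was the cyclin gene Ccne2, whose probe was not well above background on any array.

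The study's question is the role of these receptors, and of maternal taurine, in progenitors of the embryonic cortex. Pregnant C57BL/6N mice received saline in the control group or phenobarbital in saline, at 80 mg/kg from a solution of 8 mg/mL, by intraperitoneal injections spaced 6 h, between embryonic days 10 and 11. The cortex came from day 12 per the protocol, or E12.5 per the sample labels. It was dissociated by mechanical means and plated on a coated dish, and total RNA was taken 4 h later. Each group holds 3 arrays, and both share the dissection, the plating and the strain. The labels call the cells neural progenitors but do not say whether replicates came from separate litters or cultures. All p-values therefore rest on sample-to-sample spread that may be technical.

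Eukaryotic cells prepare each replication origin once per cycle. The origin recognition complex, helped by Cdc6 and Cdt1, loads the ring-shaped Mcm2 to Mcm7 helicase in G1. At the start of S phase the kinase pair of Cdc7 and Dbf4 and the cyclin E partner Cdk2 turn the ring into an active helicase by adding Cdc45 and the GINS complex. Polymerases, the sliding clamp and a supply of deoxynucleotides then make the new strands. E2F factors, held back by the retinoblastoma protein until late G1, switch on many of these genes, and cortical progenitors of this age cycle rapidly.

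Because E2F control is the feature textbooks give these genes in common, their promoters were searched for it. The windows run from 250 bases before to 50 after an annotated start site, from RefSeq on build GRCm38.p6, and 43 members had at least 1. Not matched were Ccne2, Gins1, Gins2, Gins4, Gmnn, Mcm4, Pole, Prim2, Rb1 and Rfc2. The letters searched were TTTCCCGC, TTTGGCGC, TTTGCCGC and TTTCGCGC, on both strands, with overlapping matches counted. They occurred in 17 of the 43 members (39.5%), against 704 of 27025 genes of the whole table (2.6%). By window, 17 of 54 member windows held them (31.5%), against 744 of 32851 (2.26%). The CCAAT box, searched on both strands, was in 26 of 43 members (60.5%) and in 41.1% of all genes. A match is a description of the letters and no proof of binding.

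Of the promoters, 6 are printed 5′ to 3′ on the strand of the gene, with E2F-type matches in capitals. They show members that rose (Rfc3, Cdk2, Cdc45), the member that fell (Mcm3) and helicase genes that did not pass (Mcm5, Mcm6). The choice is not representative. The letters were in 17 of 43 members, and in 2 of the 6 risers with a window, Rfc3 and Cdk2.
Rfc3, chr5:151651159-151651458, minus strand: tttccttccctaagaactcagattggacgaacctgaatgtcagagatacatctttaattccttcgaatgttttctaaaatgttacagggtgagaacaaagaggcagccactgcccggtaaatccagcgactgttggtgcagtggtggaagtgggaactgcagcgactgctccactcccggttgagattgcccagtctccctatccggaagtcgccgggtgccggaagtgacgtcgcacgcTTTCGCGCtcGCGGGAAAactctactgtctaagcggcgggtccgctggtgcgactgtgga
Cdk2, chr10:128705002-128705301, minus strand: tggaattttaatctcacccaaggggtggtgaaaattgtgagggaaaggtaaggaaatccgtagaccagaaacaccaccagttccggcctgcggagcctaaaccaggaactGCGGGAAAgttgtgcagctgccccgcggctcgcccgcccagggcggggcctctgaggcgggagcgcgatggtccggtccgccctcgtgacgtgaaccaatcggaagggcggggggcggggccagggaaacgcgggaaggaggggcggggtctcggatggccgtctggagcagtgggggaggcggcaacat
Cdc45, chr16:18811923-18812222, minus strand: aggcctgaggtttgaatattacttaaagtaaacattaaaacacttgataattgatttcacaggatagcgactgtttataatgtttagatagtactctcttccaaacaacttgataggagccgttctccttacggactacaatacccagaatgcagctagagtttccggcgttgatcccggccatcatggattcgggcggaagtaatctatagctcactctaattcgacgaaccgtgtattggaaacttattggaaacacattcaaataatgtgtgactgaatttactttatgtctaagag
Mcm3, chr1:20820263-20820562, minus strand: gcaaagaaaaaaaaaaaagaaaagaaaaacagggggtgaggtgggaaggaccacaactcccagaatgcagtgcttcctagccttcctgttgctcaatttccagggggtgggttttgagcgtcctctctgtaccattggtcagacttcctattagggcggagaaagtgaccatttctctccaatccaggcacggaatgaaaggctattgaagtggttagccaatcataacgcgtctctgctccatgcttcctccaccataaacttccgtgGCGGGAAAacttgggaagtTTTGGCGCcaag
Mcm5, chr8:75109259-75109558, plus strand: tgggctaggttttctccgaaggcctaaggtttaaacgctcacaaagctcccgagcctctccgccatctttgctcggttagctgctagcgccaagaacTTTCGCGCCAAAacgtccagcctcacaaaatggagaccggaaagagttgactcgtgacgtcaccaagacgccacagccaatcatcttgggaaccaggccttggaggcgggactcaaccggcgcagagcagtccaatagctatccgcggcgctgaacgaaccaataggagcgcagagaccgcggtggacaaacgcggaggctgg
Mcm6, chr1:128359656-128359955, minus strand: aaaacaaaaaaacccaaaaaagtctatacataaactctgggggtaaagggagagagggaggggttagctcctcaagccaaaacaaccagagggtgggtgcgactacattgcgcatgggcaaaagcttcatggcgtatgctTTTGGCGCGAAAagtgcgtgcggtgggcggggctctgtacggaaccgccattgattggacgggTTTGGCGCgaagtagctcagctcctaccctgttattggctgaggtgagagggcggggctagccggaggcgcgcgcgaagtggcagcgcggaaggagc
The positions of these matches are counted from the start site, with the base before it as -1. Rfc3 held 1 match at -10 to -3 and another at 1 to 8. Mcm6 held 3, of which those at -110 to -103 and -106 to -99 overlap on opposite strands, and Mcm5 held a pair overlapping in the same way. The window of Cdc45 held none, which says only that these letters are not in it.

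**Figure D1:**
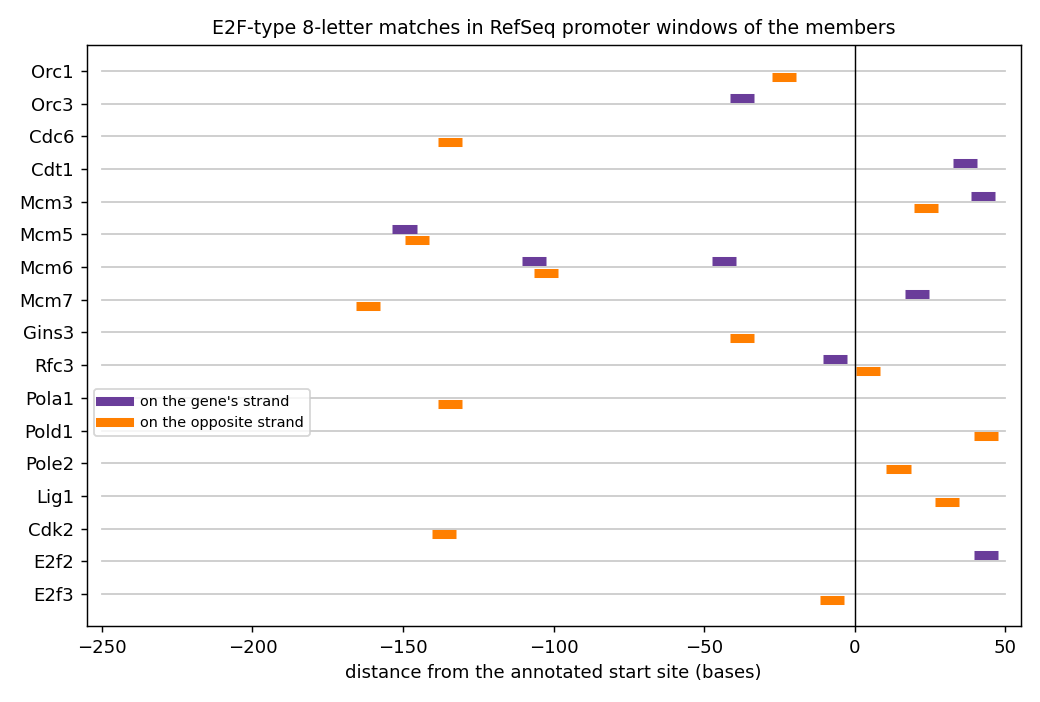
Positions of the E2F-type letters in the promoter windows of the 17 members that hold them (x axis: bases from the annotated start site; 1 line per gene, bars coloured by strand). Matches lie on both sides of the start site, and Mcm5 and Mcm6 have overlapping pairs.

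Signals are given as log2 of the scanner signal relative to each array's 75th percentile, so a value of 0 is the 75th percentile. That percentile ranged from 1116 to 1291 in controls and from 1803 to 1862 with phenobarbital. Control replicate 1 shared slide 1 with all 3 phenobarbital arrays, and control replicates 2 and 3 were each on a slide of their own. Control replicate 2 stood apart. Across the tested probes, which are not independent replicates, its Pearson's r with the other controls was 0.987 and 0.982, against 0.995 between those, and it was 0.973 to 0.974 with the phenobarbital arrays. The marker lists were chosen with earlier results of these data known. All 8 radial glia markers were measured, with 1 fall (Vim) and no rise. Their summed signal was 328 to 352 in controls and 260.1 to 290 with phenobarbital. Vim made up 64.6% to 73.1% of that sum, and without it the sums overlapped, at 92.5 to 100 and 85.0 to 103. The log2 fold change of Vim was -0.44. All tested probes in its class of mean signal, 1 log2 unit wide, had a median of -0.43. Hes5 had 0.58, with groups that did not overlap (limma, adjusted p = 0.0708). All 7 neuronal markers were measured as well, and 4 fell, Dcx, Elavl3, Elavl4 and Stmn2 (sum 152 to 182 against 105 to 124). On the brightest probes all 7 log2 fold changes were negative. Dimmer probes of Dcx (-0.25 and -0.32) and Elavl4 (-0.34) did not pass. Map2 had -0.004 and 0.02 on its probes, and the groups overlapped for Neurod6. Of 8 choroid plexus markers 7 were tested and 6 rose (sum 1.90 to 4.09 against 11.7 to 22.9). Cldn3 and Kcne2 passed the filter only through the phenobarbital arrays, so their rises add no support. Kl did not pass the filter, with means of -5.26 in controls and -6.33 with phenobarbital, and Aqp1 had a log2 fold change of -0.05. Ttr, with means of -1.70 and 3.25, weighed most in the phenobarbital sums. Of 7 erythroid markers 5 fell (936 to 1369 against 602 to 655). Of 7 markers of mural cells and meninges 6 fell (47.0 to 53.4 against 26.6 to 32.6). Of 6 endothelial markers 3 fell (67.8 to 79.3 against 40.5 to 46.9). Among these 6, Pecam1 had a log2 fold change of 0.70, with groups that did not overlap (limma, adjusted p = 0.0805), and 5 were negative. Of 6 microglial markers 1 rose (C1qb) and 3 fell (Aif1, Mrc1 and Tyrobp), with sums of 7.70 to 9.94 against 8.21 to 10.6. Csf1r, the brightest of the 6, had log2 fold changes of 0.50, -0.38 and 0.43 on its probes, none of which passed. Of 4 intermediate progenitor markers 1 fell, Insm1, at -0.89 (sum 50.8 to 58.4 against 33.9 to 38.4). Insm1 weighed most in these sums, with a mean log2 signal of 4.80 against 2.77 for Eomes, the next brightest. The groups overlapped on the brightest probes of Eomes, Neurog2 and Btg2, and a dimmer Eomes probe fell, at -0.59 (limma, adjusted p = 0.0358). Other bright markers share the limit given for Vim. The median of all tested probes was -0.28 in the signal class of Tubb3 (-0.35) and Elavl3 (-0.65). In the class of Hba-a1 (-0.62) and the brighter Hbb-y probe (-0.66) it was -0.43. The part of these cell types in the results that follow was not tested.

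Most replication genes differed little between the groups, while 7 rose and 1 fell. The rises were Orc5, Rfc3, Gins2, Cdc45, Pold2, Cdk2 and Rpa2, and the fall was the helicase gene Mcm3. With every probe counted, 8 probes rose and 2 fell, because a dimmer probe of Ccne1 rose and a dimmer probe of Pole fell. These calls come from limma's test over 34672 probes, adjusted by Benjamini-Hochberg and called below 0.05. For a gene with several probes, the count of genes uses the one with the highest signal. In a bulk sample, fewer cells of a type and less RNA per cell cannot be told apart.

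The members' share of rises was 13.5% (7 of 52), where 6.00% of the leading probes of all 25303 names rose. Their share of falls was 1.92% (1 of 52), where 10.1% of all names fell. Over single probes the background was 6.96% for rises and 9.24% for falls. The direction of the background depends on scaling: rises made up 43.0% of all calls here, 59.1% after quantile normalization, 62.7% after scaling to the median, 66.6% with the percentile limited to probes detected on all 6 arrays, and 25.6% with normexp. The median log2 fold change of the 52 genes was -0.12, and that of all probes was -0.15. The groups did not overlap for 22 members, higher in 10 (19.2%) and lower in 12 (23.1%), and for all names the shares were 11.6% and 32.9%. These shares over all names are the background for each gene below whose groups are said not to overlap. Of the 44 genes that did not pass, 42 had a log2 fold change within 0.5 of 0, and for 41 the 95% interval of the difference lay inside a 2-fold change either way.

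**Figure D2:**
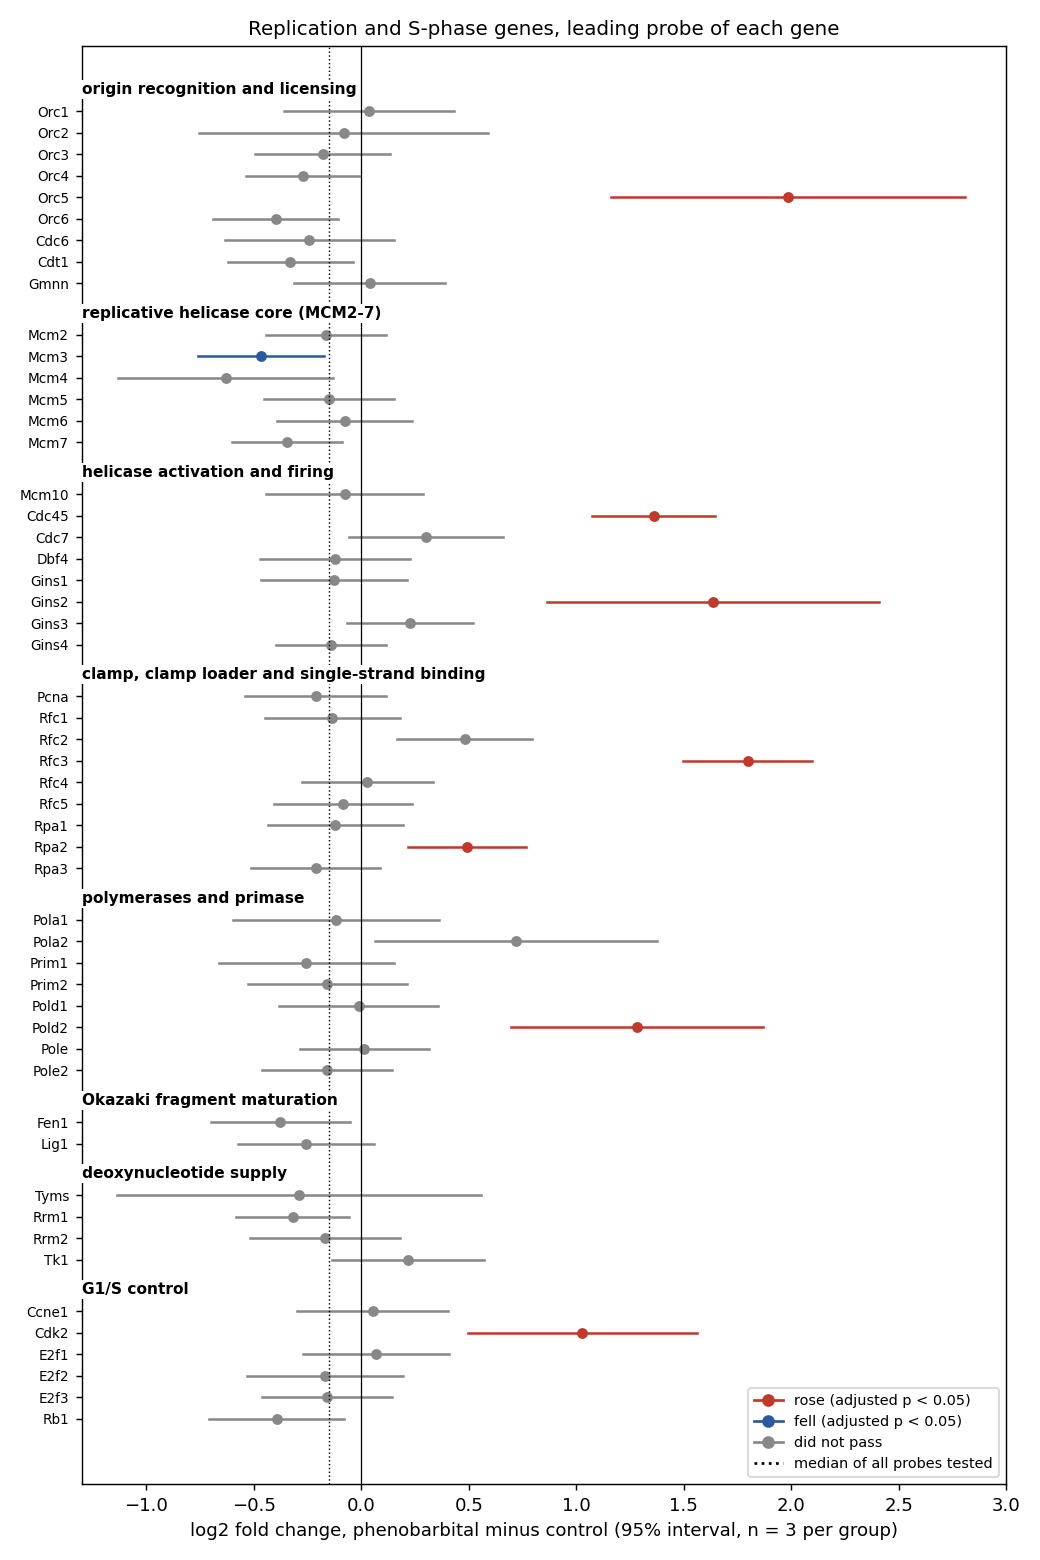
Log2 fold change of the 52 tested genes, phenobarbital minus control, by role, with 95% intervals from limma (n = 3 per group); the dotted line is the median of all probes tested, -0.15. The 7 rises lie between 0.49 and 1.98, and 42 of the 44 genes that did not pass lie within 0.5 of 0, Mcm4 and Pola2 being the exceptions, with the 6 helicase core genes all below 0 under this scaling, and 4 of them after quantile normalization.

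The number of genes that passed varied as single arrays were left out. Without control replicate 1 only 2 genes passed, and without control replicates 2 and 3 the counts were 8 and 5. Without phenobarbital replicates 1, 2 and 3 they were 2, 3 and 3. Over all probes, the calls without those phenobarbital arrays were 1418, 1420 and 1850. When slide was fitted as a fixed block, setting control replicate 1 alone against the phenobarbital arrays, 3 genes passed, and with the slide as a random block 7. All values given within slide 1 have that 1 control array, so their p-values take the spread from the phenobarbital arrays and assume that the lone control varies like them. They are no check on the spread between controls. Calls over all probes dropped alongside, from 5617 to 1373 without control replicate 1 and to 1094 with the slide block. Array weights raised the member count to 17 of 52, with 9 rises and 8 falls, and 19 of 60 member probes. Over all 34672 probes they raised the calls to 12225, with 3968 rises and 8257 falls. Rfc3 and Cdc45 passed under each of the 20 other settings tried, and all 10 called probes kept their sign in each setting that gave them a value.

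Among the 9 genes of origin recognition and licensing, 1 rose, none fell and 8 did not pass. Orc5, a subunit of the origin recognition complex, stood highest of all members in log2 fold change. Its control values were -3.23, -2.77 and -3.54, and its phenobarbital values were -1.27, -1.77 and -0.55. The groups lay a full unit apart, though the phenobarbital arrays spread more than for any other riser. Orc5 rose by 1.98 ± 0.34 (SE, n = 3 per group), a 3.96-fold change whose 95% interval ran from 2.24 to 7.0 (limma, adjusted p = 0.0182). Within slide 1 the difference was 2.04 and did not pass (adjusted p = 0.0945), and the call ended without control replicate 1 or phenobarbital replicate 1.

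The other subunits of this complex did not share that change. For Orc6 the difference was -0.40 ± 0.12 on the log2 scale (adjusted p = 0.0687), with all 3 phenobarbital arrays below all controls. Orc4 had -0.27, with -0.02 on its other probe, and Orc3 had -0.18 and -0.08. Orc1, the subunit that comes and goes with the cycle, had 0.04, and Orc2 had -0.08, and -0.41 without phenobarbital replicate 3, which lay well above its group. For the loading factors the values were -0.33 ± 0.12 for Cdt1 (adjusted p = 0.109) and -0.24 and 0.07 on the probes of Cdc6. Geminin (Gmnn), which blocks Cdt1 once S phase has begun, had 0.04 ± 0.15.

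The 6 subunits of the helicase ring all had a negative log2 fold change, with a median of -0.25, but only Mcm3 passed. Probes as bright as these were lower in general: among all probes tested, the median log2 fold change was -0.21 to -0.35 across the classes of mean signal, 1 log2 unit wide, that hold the ring's probes. The shared sign depends on scaling and on 1 array: after quantile normalization 4 of the 6 were negative, with the median at -0.08, and 5 were with the percentile over probes detected on all arrays or without phenobarbital replicate 3. On the control arrays Mcm3 gave 5.38, 5.37 and 5.42, and on the phenobarbital arrays 5.03, 5.01 and 4.73. The controls were nearly level, and every phenobarbital array lay below them. Mcm3 fell by 0.46 ± 0.12, a 1.38-fold drop with an interval of 1.13 to 1.69 (limma, adjusted p = 0.0482). This call passed under 5 of the 20 other settings, and after quantile normalization the value was -0.20 (adjusted p = 0.240). Within slide 1 it was -0.46 (adjusted p = 0.253).

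Mcm4 had the lowest value of the ring, -0.63 ± 0.21 (adjusted p = 0.0846). Its controls were 5.22, 5.82 and 5.07, against 4.80, 4.80 and 4.62 with phenobarbital. Control replicate 2 was the high one, and without it the value was -0.40 (adjusted p = 0.0666). Mcm7 had -0.34 ± 0.11 (adjusted p = 0.0722) with groups that did not overlap, and it passed with normexp, with a variance prior that follows the signal and with array weights. Mcm2, Mcm5 and Mcm6 had -0.16, -0.15 and -0.08, and their groups overlapped.

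The factors that turn the loaded ring into a working helicase held 2 of the 7 rises, with 6 of 8 genes not past the threshold. Cdc45 is the protein that joins the ring when an origin fires. It gave -2.44, -2.37 and -2.53 on the control arrays and -1.02, -1.25 and -0.998 on the phenobarbital arrays. The arrays of each group lay close together, with a wide gap between the groups. Cdc45 rose by 1.36 ± 0.12, a 2.57-fold change with an interval of 2.11 to 3.13 (limma, adjusted p = 0.00288). It was 1.35 within slide 1 (adjusted p = 0.0359, 1 control array) and 1.01 with normexp.

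Gins2 encodes 1 subunit of the GINS complex, the partner of Cdc45. Control values were -0.05, -1.18 and -0.03, and phenobarbital values were 1.29, 1.32 and 1.03. Control replicate 2 lay far below the other controls, and all phenobarbital arrays lay above the 3. Gins2 rose by 1.64 ± 0.32, or 3.11-fold with an interval of 1.82 to 5.31 (limma, adjusted p = 0.0251). Without control replicate 2 the rise was 1.26 (adjusted p = 0.00567), and within slide 1 it was 1.27 (adjusted p = 0.0433, 1 control array). The call ended when control replicate 1 or any phenobarbital array was left out, with adjusted p-values of 0.0544 to 0.0875. The rise in those fits was 1.58 to 1.82.

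The other GINS subunits, which form a complex with Gins2, had log2 fold changes of -0.13 for Gins1, 0.23 for Gins3 and -0.14 for Gins4, and none passed. Mcm10, which helps the helicase start, had -0.08 ± 0.15. The kinase gene Cdc7 had 0.30 and 0.17 on its probes, and its activator Dbf4 had -0.12.

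**Figure D3:**
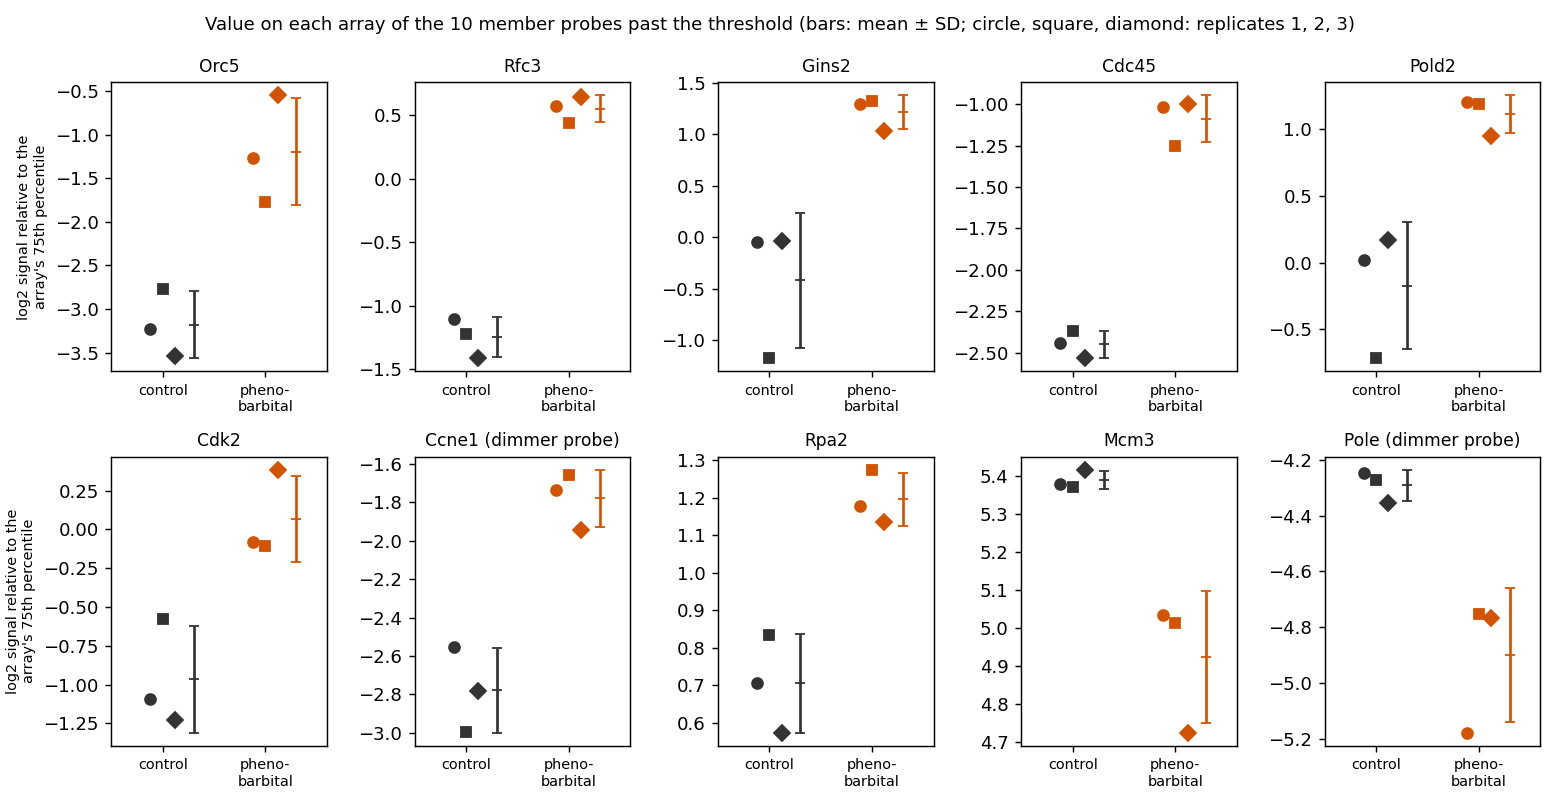
Value on each of the 6 arrays of the 10 member probes past the threshold (y axis: log2 signal relative to the array's 75th percentile, own scale per panel; bars are mean ± SD, n = 3). In every panel the groups do not overlap, and control replicate 2 lies apart from the other controls for Gins2 and Pold2.

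Of the clamp, its loader and the single-strand binding protein, 2 of 9 genes rose and none fell. Rfc3, a small subunit of the clamp loader, had the lowest p of the members. Controls gave -1.10, -1.22 and -1.41, and phenobarbital arrays gave 0.57, 0.44 and 0.64. The lowest phenobarbital array was over 1 unit above the highest control. Rfc3 rose by 1.80 ± 0.13, a 3.48-fold change with an interval of 2.82 to 4.28 (limma, adjusted p = 0.00217), and the difference within slide 1 was 1.65 (adjusted p = 0.0292, 1 control array).

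The rest of the loader did not follow at that size. Rfc2 had 0.48 ± 0.13 (adjusted p = 0.0521) with groups that did not overlap, and it passed under 8 of the 20 alternatives, among them quantile normalization. Values for Rfc1 and Rfc5 were -0.13 and -0.08, and Rfc4 had 0.03 and 0.38 on its probes. Rpa2, the middle subunit of the protein that coats single-stranded DNA, gave 0.70, 0.84 and 0.57 in controls and 1.18, 1.27 and 1.14 with phenobarbital. It rose by 0.49 ± 0.11, or 1.41-fold with an interval of 1.16 to 1.70 (limma, adjusted p = 0.0370). The groups were separate but near, and the value was 0.49 within slide 1 (adjusted p = 0.179); the call ended when any array other than control replicate 2 was left out. Its partners Rpa1 and Rpa3 had -0.12 and -0.21. The sliding clamp Pcna, a common marker of cycling cells, had -0.21 ± 0.14 (adjusted p = 0.306), and RefSeq lists pseudogenes of Pcna that its probe may read too.

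Of 8 polymerase and primase genes, 1 rose on its leading probe. Pold2, the second subunit of polymerase delta, which copies the lagging strand, gave 0.02, -0.72 and 0.17 in controls and 1.20, 1.18 and 0.95 with phenobarbital. As for Gins2, control replicate 2 was the low array and the phenobarbital arrays lay above all 3 controls. Pold2 rose by 1.28 ± 0.24, or 2.43-fold with an interval of 1.62 to 3.65 (limma, adjusted p = 0.0231). It was 1.01 without control replicate 2 (adjusted p = 0.00942) and 1.09 within slide 1 (adjusted p = 0.0525). Leaving out control replicate 1 or any phenobarbital array ended the call, with adjusted p-values of 0.0617 to 0.0845. The rise in those fits was 1.24 to 1.38.

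Pold1, the catalytic subunit that Pold2 binds, had -0.01 ± 0.15. Pole, the catalytic subunit of the leading-strand polymerase, had 0.01 ± 0.12 on its brighter probe. The dimmer probe of Pole gave -4.25, -4.27 and -4.35 in controls and -5.18, -4.75 and -4.77 with phenobarbital, and fell by 0.61 ± 0.15 (limma, adjusted p = 0.0395). That fall passed under 5 of 19 other settings. Its partner Pole2 had -0.16. Pola2, the second subunit of the polymerase that starts each strand, had 0.72 ± 0.27 (adjusted p = 0.116), and 0.41 without control replicate 2, which was the low array at -2.62 against -1.65 and -1.71. Pola1, Prim1 and Prim2, the other parts of that enzyme, had -0.12, -0.25 and -0.16.

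None of the 6 genes for joining Okazaki fragments and for deoxynucleotides passed. Fen1, the nuclease that trims the fragments, had -0.38 ± 0.13 (adjusted p = 0.100), and Lig1, the ligase that seals them, had -0.26 ± 0.13 (adjusted p = 0.213). Both had groups that did not overlap, with phenobarbital lower, as was so for 32.9% of all names. The subunits of ribonucleotide reductase, Rrm1 and Rrm2, had -0.32 ± 0.11 (adjusted p = 0.0927) and -0.17 ± 0.14. Thymidine kinase (Tk1) had 0.22 ± 0.15. Thymidylate synthase (Tyms), for which RefSeq lists a pseudogene that its probe may read, had -0.29 ± 0.35, with control replicate 2 at 0.16 against -1.07 and -1.12 for the other controls. Without that array the value was 0.13.

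In the group that controls entry into S phase, 1 of 6 tested genes rose. Cdk2, the kinase that cyclin E activates, gave -1.09, -0.58 and -1.23 in controls and -0.08, -0.11 and 0.38 with phenobarbital. The groups were separate, and the spread within each was wide. Cdk2 rose by 1.03 ± 0.22, or 2.04-fold with an interval of 1.41 to 2.95 (limma, adjusted p = 0.0309). It was 1.16 within slide 1 (adjusted p = 0.0852), and the call ended when any array other than control replicate 2 was left out.

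The probes of Ccne1, the cyclin E gene, differed. Its brighter probe had 0.05 ± 0.15 and its dimmer probe rose by 0.998 ± 0.15 (limma, adjusted p = 0.0128). On the dimmer probe the controls were -2.56, -3.00 and -2.78 and the phenobarbital arrays -1.74, -1.66 and -1.95, with no overlap. It was 0.78 within slide 1 (adjusted p = 0.105). Of the 8 members with a second probe, Ccne1 had the largest difference between probes, 0.95, and in 6 neither probe passed. The activating factors E2f1 and E2f2 had 0.07 and -0.17, and E2f3 had -0.16 and 0.14 on its probes. Rb1, the retinoblastoma gene that restrains them, had -0.39 ± 0.13 (adjusted p = 0.0847) with groups that did not overlap.

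The rises lay on probes of middling signal. With all tested probes sorted by their mean signal into 3 classes of equal size, 7 of 18 member probes in the middle class rose and none fell, where 10.2% of all probes of that class rose and 8.32% fell. In the brightest class 1 of 39 member probes rose and 1 fell, where 4.66% of all probes rose and 13.1% fell. Only 3 member probes were in the dimmest class. The median log2 fold change of member probes was 0.11 in the middle class and -0.15 in the brightest, against -0.11 and -0.22 for all probes. The signal of a probe also reflects its own binding, so it is no measure of how much RNA a gene makes.

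**Figure D4:**
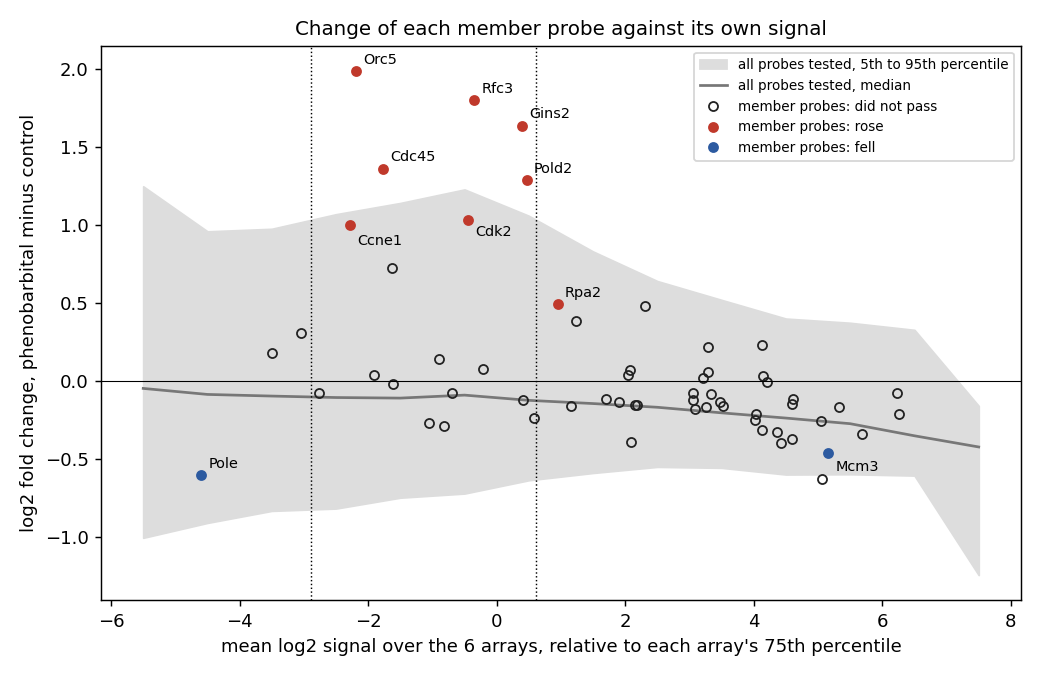
Log2 fold change of the 60 tested member probes (y axis) against their own mean log2 signal over the 6 arrays (x axis); the grey band and line are the 5th to 95th percentile and the median of all probes tested, and dotted lines divide the 3 signal classes. Apart from Rpa2 the rises sit in the middle class, and the brightest class lies close to the median line.

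Single arrays held many of the members' extreme values. The lowest of the 6 values was on phenobarbital replicate 3 for 61.5% of the 52 genes and for 33.2% of the 25276 names with a value on every array. The highest was on control replicate 1 for 40.4% of the members and 15.0% of those names. Among the 44 genes that did not pass, the counts were 31 and 21. Relative to the control means, the median of the 52 genes was -0.27 on phenobarbital replicate 3, against -0.05 and -0.02 on replicates 1 and 2. Over all names the corresponding medians were -0.19, -0.16 and -0.15. Without phenobarbital replicate 3 the members' median log2 fold change moved from -0.12 to -0.04.

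**Figure D5:**
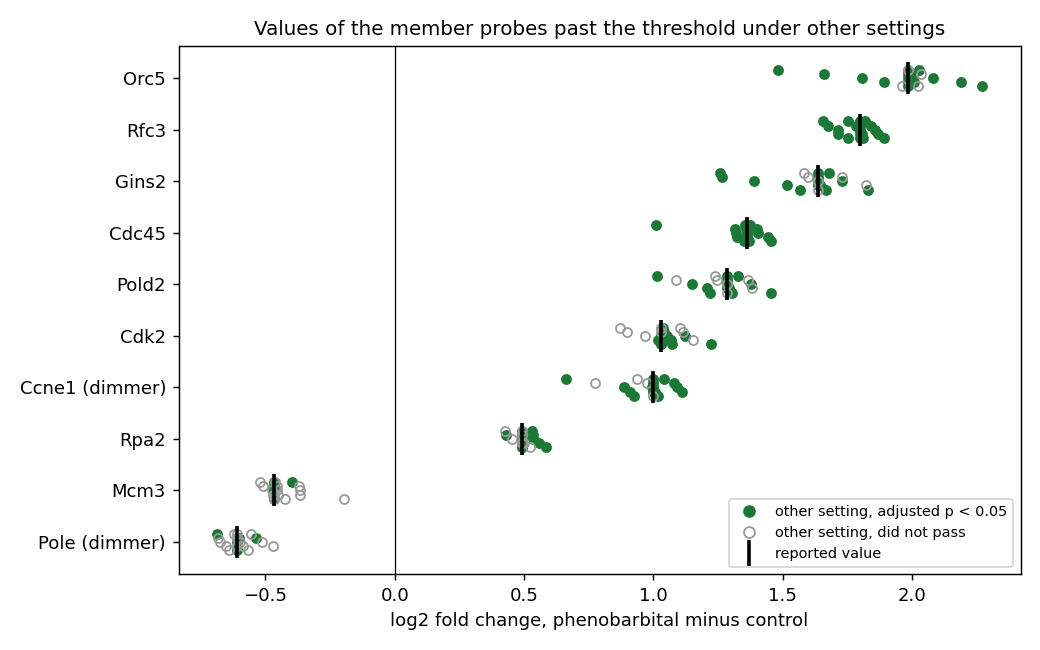
Log2 fold change (x axis) of the 10 called member probes under the other settings, 1 point per setting, filled where the adjusted p was below 0.05, with the reported value as a black bar. No point crosses 0, and Rfc3 and Cdc45 are filled throughout, while most points of Mcm3 and of the dimmer Pole probe are open.

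A further 51 genes of replication and S phase, of which 50 were tested, were set beside the members. Of these, 7 rose (14%), where 6.00% of all names rose, and 3 fell (6.00%), where 10.1% of all names fell. The other 40 did not pass, and the median log2 fold change was -0.06. The values of these genes under the other settings were not examined. Chaf1a, a subunit of the factor that loads histones behind the fork, rose by 0.84 ± 0.11 (limma, adjusted p = 0.00878). Pold4, a small subunit of the polymerase that Pold2 belongs to, rose by 1.18 ± 0.20 (adjusted p = 0.0183). Shmt1, which feeds thymidylate synthesis, and the maintenance DNA methyltransferase gene Dnmt1 rose by 0.69 ± 0.12 and 0.70 ± 0.12. Among the falls were Pole4, a small subunit of the leading-strand polymerase, by 0.50 ± 0.10, and the histone chaperone gene Nasp, by 0.56 ± 0.12. The dimmer probe of Nasp had -0.30 and did not pass (limma, adjusted p = 0.260), and that of Shmt1 rose by 0.60. E2F-type letters were in the promoter windows of 12 of 42 of these genes (28.6%). Among the members, the 17 genes with the letters had a median log2 fold change of -0.16, with 2 rises and 1 fall, and the 26 without had -0.10, with 4 rises.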

How the data were processed

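RNA of 3 control and 3 phenobarbital samples was hybridised to 1-colour Agilent arrays, from 0.2 µg labelled with Cy3 per the labels' protocols. Per the file headers, the authors quantified the scans with Feature Extraction 10.7.3.1 (10.7 per the submitters' processing notes), and the array annotation is on mm9. The deposited intensity values are linear, background-subtracted within each array and not scaled between arrays. The authors' deposited value table holds log2 values; its differences between arrays matched those of the processed signals, less 1 constant per array, to within 1.77e-06 for 99% of values. The constant each probe was centred on stays unknown. Its column medians were 0.08, 0.10 and 0.09 for controls and -0.02, -0.09 and -0.08 for phenobarbital.

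From the files, processed signals were divided by the array's 75th percentile over 59305 non-control spots and put on a log2 scale. Outlier spots, 98 to 198 per array, were left out, no spot was saturated, and spots of a probe were averaged, giving 55681 probes. Of these, 26582 were named through RefSeq accessions, and no gene coordinates of that table were used. A probe was kept if all arrays of either group read it well above background and each group had at least 2 values, which left 34672. The test was limma's (version 3.58.1, lmFit then eBayes, in R 4.3.3), two-sided and without covariates. A positive fold change means higher with phenobarbital, and errors are the fit's standard errors. The leading probe is the brightest of a gene. Single values cannot pass an exact permutation test here, whose smallest p is 0.1. The fit was tested on simulated data first. Precision is limited by the number of arrays.

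The members, the lists and the rule for naming were chosen with earlier results of these data known. Named were all members with a call, members whose probes differed by over 1 (none did), the members with the smallest p in groups without a call, and up to 4 further genes in each direction. The values of 1 such gene are not reported here. Other members are named for completeness. Alternatives changed background correction, scaling, filter, outliers, probe choice, variance prior, array weights, source of values, blocks for replicate number and slide, and left out each array. The normexp correction (offset 50) used median spot signals. The split by signal was chosen after seeing the data.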

Additional observations from a re-analysis of the deposited data

How the results depend on the processing

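Of 1192 values of single member probes over 20 other settings, 1083 stayed on their side of the threshold with a called value's sign kept or an uncalled value within the spread between replicates, 66 lost a call, 22 gained one with the same sign, 21 uncalled values moved by more than that spread, and no called value changed sign. Counts are of member genes, member probes and all probes, against 8, 10 and 5617. They were 3, 4 and 1929 with no filter on dim probes, where more probes are tested, 17, 19 and 12225 with array weights, and 3, 3 and 1094 with the slide as a fixed block. With normexp 9201 probes passed in all, and with scaling to the median 3639. The members' median of -0.12 turned to 0.045 after quantile normalization, was -0.030 with the percentile over probes above background on all arrays, and was -0.18 with the slide block. Leaving out 1 array gave 2 to 8 member genes, 2 to 9 member probes, 1373 to 5879 probes in all and medians of -0.16 to -0.041, the last without phenobarbital replicate 3. The cause was not tested. With the replicate number as a block 2 member genes, 2 member probes and 577 probes in all passed. Deviations of same-numbered arrays from their group means correlated at 0.06, -0.16 and -0.32. Deviations from a mean of 3 arrays depend on each other, so this cannot tell whether the numbers pair the arrays. Signal over background limits Ccne2, for which no difference could be measured.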
